A study of Mus musculus with 6 samples.

Results

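Rgs5, Pdgfrb, Cspg4, Kcnj8 and Higd1b, which mark pericytes, and Acta2, Myh11, Tagln, Mylk and Cnn1, which build or regulate the contractile apparatus of smooth muscle, were followed by gene symbol in lung tumors and normal lung of the RPM mouse. These 10 genes are 10 of 22477 rows of the deposited count table, and all 10 passed the filter on low counts. They were chosen by their counts in the tumor and normal columns, so their own differences between tumor and normal lung are given as a description, with no p-value. RNA came from 4 tumors and 2 samples of normal lung, each from its own mouse and all in 1 batch. The genotype in all 6 labels is Rb1/Trp53/MycT58A, which models small cell lung cancer: Cre removes floxed Rb1 and p53 and switches on a stable mutant Myc. All 6 labels, normal lung included, also carry the adenovirus Ad5CGRP-Cre, whose CGRP promoter directs Cre to neuroendocrine cells of the airway. The growth protocol gives induction at 8 weeks of age. The sources used here give neither the age at collection nor a treatment arm for these animals. The libraries are named normal 1 and 2 and tumor 3 to 6, after the numbers in their titles.

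Pericytes sit on capillaries inside the basement membrane that they share with endothelium, and are recruited when endothelial PDGF-B binds the receptor encoded by Pdgfrb. Smooth muscle cells of vessels and airways contract when calcium activates myosin light chain kinase, the product of Mylk, which phosphorylates myosin carrying the Myh11 heavy chain. Their contractile genes share binding sites for SRF, the CArG boxes, at which the coactivator myocardin acts. Activated fibroblasts also express Acta2, Tagln and Pdgfrb, so these names mark cell types only in part.

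The sequences shown first are those upstream of Acta2, a gene that was lower in every tumor, and of Rgs5, which was higher in every tumor. They are the 250 bases before the annotated start, 5′ to 3′ on the gene's strand, from RefSeq on GRCm38.p6, a later build than the mm9 named for these data. Capitals mark CArG-like boxes, which are CArG boxes with exactly 1 of the 6 central bases changed to G or C.
Acta2, chr19:34255374-34255623, minus strand: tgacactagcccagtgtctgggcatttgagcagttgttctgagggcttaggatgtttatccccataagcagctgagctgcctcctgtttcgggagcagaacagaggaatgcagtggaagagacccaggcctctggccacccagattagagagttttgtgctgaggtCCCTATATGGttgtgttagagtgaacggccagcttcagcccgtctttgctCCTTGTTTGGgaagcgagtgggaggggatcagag
Rgs5, chr1:169655251-169655500, plus strand: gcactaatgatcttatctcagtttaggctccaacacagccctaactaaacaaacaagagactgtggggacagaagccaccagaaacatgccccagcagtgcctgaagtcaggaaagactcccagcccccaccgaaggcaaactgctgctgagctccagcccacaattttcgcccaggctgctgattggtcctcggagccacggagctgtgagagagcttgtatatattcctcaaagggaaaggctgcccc

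Acta2 held 2 CArG-like boxes, whose first bases lay 84 and 34 bases before the start, and no box with all 6 central bases A or T. Both motifs read the same on either strand, and they cannot match at the same position. Of 32851 RefSeq promoters cut to the same 250 bases, 7.24% held a CArG-like box and 1.47% a CArG box. The window of Rgs5 held neither motif, nor the E-box CAGCTG, which occurs on either strand in 13.00% of promoters and once in that of Acta2, from 182 bases before the start. Promoters were matched by symbol for 6 of the 10 genes, and Mylk, Cnn1, Cspg4 and Kcnj8 had neither CArG motif in this window. Pdgfrb, Higd1b, Myh11 and Tagln had no entry.

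Library totals were 54735400 to 70817400 counts in tumors and 91049400 to 99122500 in normal lung. Rn45s, Rpph1 and Rmrp, RNAs without a poly(A) tail, took 5.46% to 13.9% of tumor counts and 0.238% to 0.550% of normal counts. Levels below are CPM, gene counts scaled to a common library size with TMM factors. The model's Myc stood at 70.2 to 175 CPM in tumors and 7.90 to 18.2 in normal lung, Trp53 at 9.42 to 15.8 and 21.5 to 22.6, and Rb1 at 42.9 to 80.2 and 72.0 to 83.5. Counts over whole genes are a weak check of the floxed exons. The 6 neuroendocrine markers summed to 336 to 798 CPM in tumors and 8.10 to 11.6 in normal lung, and 4 lung epithelial markers to 47.5 to 570.5 and 34570.5 to 38139.8. The same 2 normal libraries enter every comparison made here, and in whole tissue fewer cells of a type and less RNA per cell cannot be told apart.

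The pericyte markers did not move as a set. Rgs5 was far higher in tumors, Pdgfrb, Cspg4 and Higd1b were lower, and Kcnj8 overlapped between the groups. Rgs5, a regulator that switches off G protein signalling in mural cells, stood at 4.31 and 4.28 CPM in normal 1 and 2. In tumors 3, 4, 5 and 6 it stood at 115, 80.9, 134 and 65.6 CPM. Every tumor was thus above both normal samples, with tumor 5 highest and tumor 6 lowest. Its log2 fold change was 4.53 ± 0.38 (SE), or 23.0-fold, and it ran from 4.35 to 4.77 over 14 alternative settings. The means were 98.9 ± 31.3 CPM (SD, n = 4) in tumors and 4.30 ± 0.0171 (n = 2) in normal lung.

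Pdgfrb, the PDGF-B receptor, went the other way, with 206 and 183 CPM in normal 1 and 2 and 15.4, 28.9, 33.8 and 25.7 CPM in tumors 3 to 6. That is a log2 fold change of -2.91 ± 0.29, or 7.51-fold lower. Tumor 3 had the least Pdgfrb, and no tumor came near the normal level. Cspg4, the NG2 proteoglycan of the pericyte surface, stood at 39.4 and 31.9 CPM in normal lung and 6.29, 9.97, 12.7 and 11.2 in tumors 3 to 6, 3.55-fold lower (-1.83 ± 0.30). Higd1b, a small mitochondrial membrane protein gene used as a pericyte marker, stood at 19.2 and 20.6 CPM against 4.71, 6.79, 6.10 and 3.37, 3.79-fold lower (-1.92 ± 0.31). For both genes all tumors lay below both normal libraries. Tumor 3 was the lowest for Cspg4 and tumor 6 for Higd1b.

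Kcnj8 encodes Kir6.1, the pore of the vascular ATP-sensitive potassium channel. It stood at 6.39 and 8.28 CPM in normal 1 and 2 and at 5.75, 5.91, 7.89 and 16.1 CPM in tumors 3 to 6. Tumors 3 and 4 were below both normal samples, tumor 5 was between them, and tumor 6 was above. Its log2 fold change of 0.28 ± 0.49 was smaller than its standard error, and without tumor 6 it was -0.08.

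**Figure D1:**
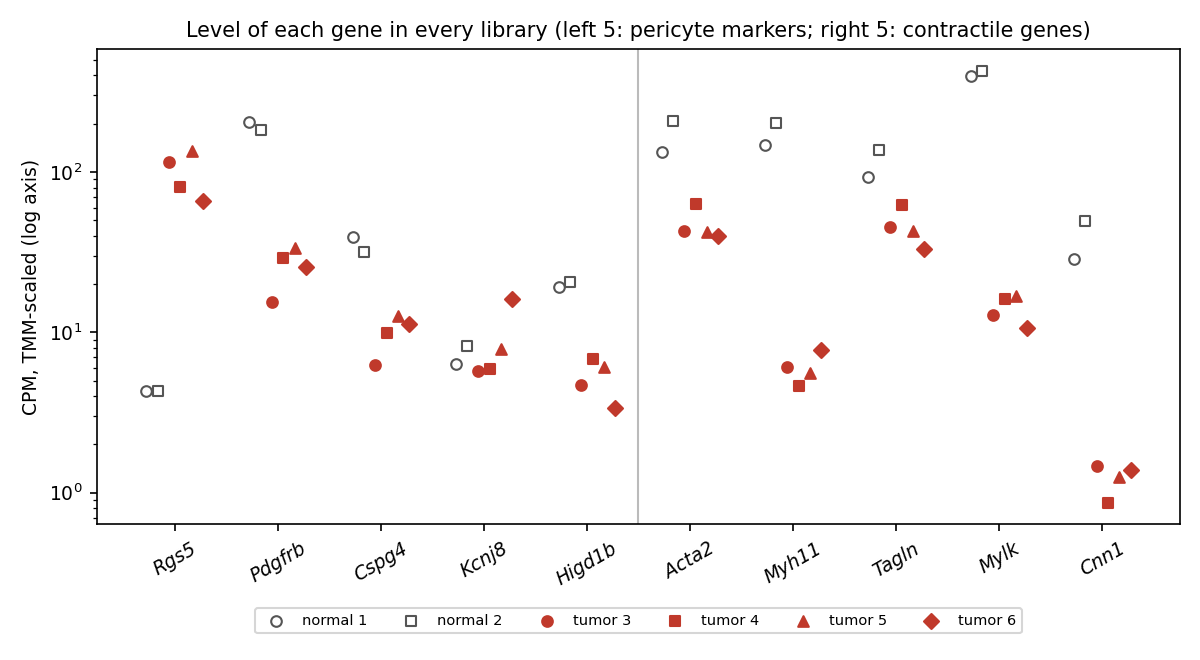
CPM of each gene on a log axis, 1 point per library, with open grey symbols for the 2 normal lungs and filled red symbols for the 4 tumors. Rgs5 lies above the normal level in every tumor (65.6 to 134 against 4.28 and 4.31 CPM), Kcnj8 overlaps, and the other 8 genes lie below it in every tumor.

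All 5 contractile genes were lower in every tumor, but by very different amounts. Myh11, the smooth muscle myosin heavy chain, stood at 147 and 202 CPM in normal 1 and 2 and at 6.06, 4.59, 5.56 and 7.76 in tumors 3 to 6. Mylk, the kinase of the light chain, stood at 399 and 427 CPM against 12.9, 16.2, 16.9 and 10.6. Cnn1, calponin, which binds actin and slows the myosin motor, stood at 28.8 and 49.2 CPM against 1.48, 0.864, 1.25 and 1.38. These 3 genes were 29.0-fold, 29.2-fold and 31.3-fold lower, with log2 fold changes of -4.86 ± 0.25, -4.87 ± 0.22 and -4.97 ± 0.33, which differ by less than their standard errors.

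Acta2, smooth muscle actin, and Tagln, the actin-bundling protein transgelin, kept much more of their normal level. Acta2 stood at 134 and 209 CPM in normal lung and 42.8, 63.5, 42.1 and 39.9 in tumors 3 to 6, a log2 fold change of -1.87 ± 0.26, or 3.64-fold lower. Tagln stood at 93.0 and 136 CPM against 45.2, 61.9, 43.1 and 33.1, -1.32 ± 0.27, or 2.50-fold lower. In both genes tumor 4 was the highest tumor and still below the lower normal sample. Normal 2 exceeded normal 1 in all 5 contractile genes, and without normal 2 the log2 fold change of Tagln was -1.04 and Tagln left the count of called genes. The 14 striated muscle markers, cardiac genes among them, also summed higher in normal 2, to 726 CPM against 309 in normal 1. Their part in the contractile levels was not tested.

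Counted at adjusted p under 0.05 (edgeR quasi-likelihood test), 5 of 5 contractile genes and 3 of 5 pericyte markers were lower, against 32.6% of all 18027 genes tested (63.9% were called in either direction). Rgs5 was the 1 pericyte marker called higher, against 31.3% of all genes. With no overlap between groups, 8 of the 10 had every tumor below both normal samples and 1 had every tumor above, against 39.8% and 37.4% of all genes. As this contrast chose the genes, nothing is read from these counts. The median log2 fold change was -4.86 for the contractile genes and -1.83 for the pericyte markers, beside 0.02 over all genes tested.

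**Figure D2:**
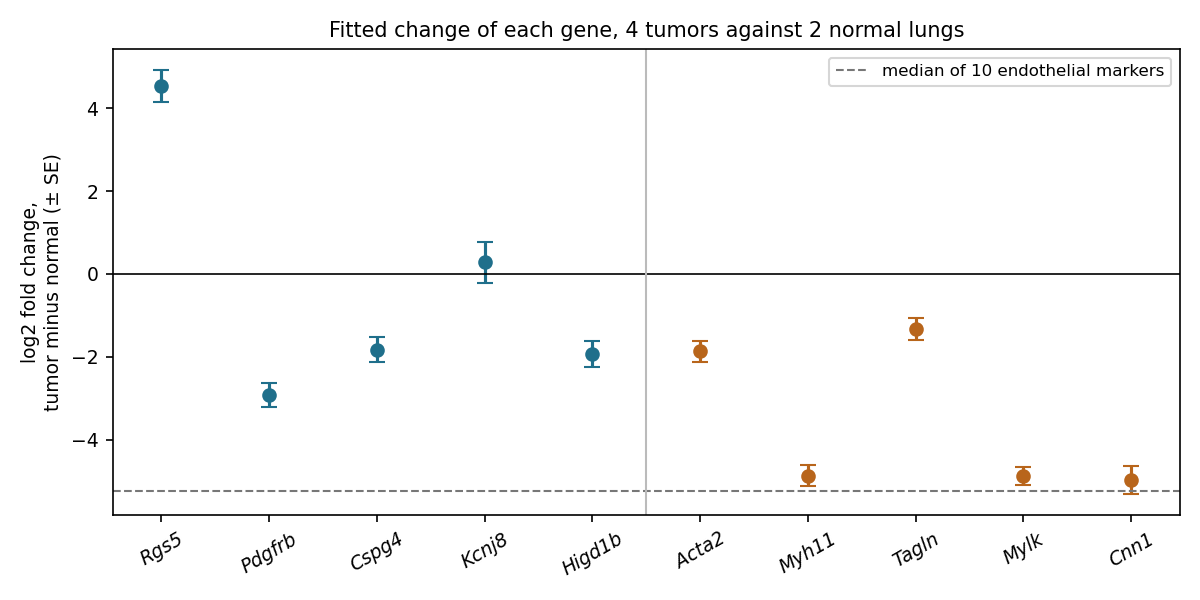
Fitted log2 fold change of each gene (tumor minus normal, points) with its standard error (bars), from the fit across all genes. The dashed line is the median of the 10 endothelial markers (-5.22), near which Myh11, Mylk and Cnn1 lie, while Acta2 and Tagln lie closer to the line at 0 and Rgs5 lies above it.

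Per kilobase of exon, with lengths from GENCODE M21, the order of the 10 genes changed. In normal lung Acta2 came first at 78.1 ± 24.3 CPM per kb (SD, n = 2), then Tagln at 57.7 ± 15.5, Mylk at 36.7 ± 1.77, Pdgfrb at 35.6 ± 2.97, Higd1b at 23.5 ± 1.13, Myh11 at 22.9 ± 5.14 and Cnn1 at 14.3 ± 5.28. Cspg4 at 2.99 ± 0.448 and Kcnj8 at 2.88 ± 0.523 followed, and Rgs5 was last at 0.945 ± 0.00376. Acta2 was above Tagln in both normal 1 (60.9 against 46.8) and normal 2 (95.3 against 68.6). Mylk and Pdgfrb, Higd1b and Myh11, and Cspg4 and Kcnj8 differed by less than their spread and changed order between the normal samples. In tumors Rgs5 stood second at 21.8 ± 6.89 CPM per kb (SD, n = 4), between Tagln at 23.1 ± 6.03 and Acta2 at 21.4 ± 5.02, and these 3 did not differ beyond their spread. Higd1b (6.19 ± 1.80), Pdgfrb (4.73 ± 1.42) and Kcnj8 (3.495 ± 1.91) formed the next group, each within the spread of its neighbour. Mylk (1.26 ± 0.258), Cspg4 (0.842 ± 0.229), Myh11 (0.789 ± 0.175) and Cnn1 (0.454 ± 0.0980) came last, with Cspg4 and Myh11 not apart.

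On this scale Rgs5 made up 1.41% and 1.46% of the summed pericyte markers in normal 1 and 2 and 47.6% to 69.4% in tumors. The ratio of Rgs5 to Pdgfrb was 0.0252 and 0.0282 in normal lung and 8.997, 3.37, 4.79 and 3.08 in tumors 3 to 6. The ratio of Acta2 to Myh11 went from 3.16 and 3.59 to 24.4, 47.8, 26.2 and 17.8, and that of Tagln to Cnn1 from 4.44 and 3.81 to 42.1, 98.7, 47.5 and 33.1. Acta2 relative to Myh11 and Tagln relative to Cnn1 were thus higher in all 4 tumors. The ratio of Tagln to Acta2 moved less, from 0.767 and 0.720 to 0.915 to 1.17, and was also higher in all 4 tumors.

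Pericytes and endothelium make up the capillary wall together, so the levels were also set beside 10 endothelial markers, which were all lower in tumors (median log2 fold change -5.22). They summed to 3679 to 4013 CPM in normal lung and to 83.9 to 131 CPM in tumors. Relative to this sum Mylk varied little, at 9.94% and 11.6% in normal 1 and 2 and 11.2%, 13.3%, 12.9% and 12.7% in tumors 3 to 6. Mylk, with tumor 3 between the normal samples, overlapped between the groups. Myh11 (3.65% and 5.48% against 3.78% to 9.25%) and Cnn1 (0.718% and 1.34% against 0.710% to 1.64%) overlapped as well. The other 7 genes were higher in every tumor on this scale, as were 90.5% of all genes tested, and nothing is read from that count. Acta2 went from 3.33% and 5.69% to 32.2% to 52.2%, Tagln from 2.32% and 3.71% to 33.0% to 50.9%, and Pdgfrb from 5.14% and 4.98% to 13.3% to 30.6%. Higd1b went from 0.479% and 0.559% to 4.01% to 5.58%, and Cspg4 from 0.982% and 0.866% to 5.45% to 13.4%. Kcnj8 went from 0.159% and 0.225% to 4.86% to 19.1%, and Rgs5 from 0.107% and 0.116% to 66.5% to 103%. These percentages share their denominator and carry no test.

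**Figure D3:**
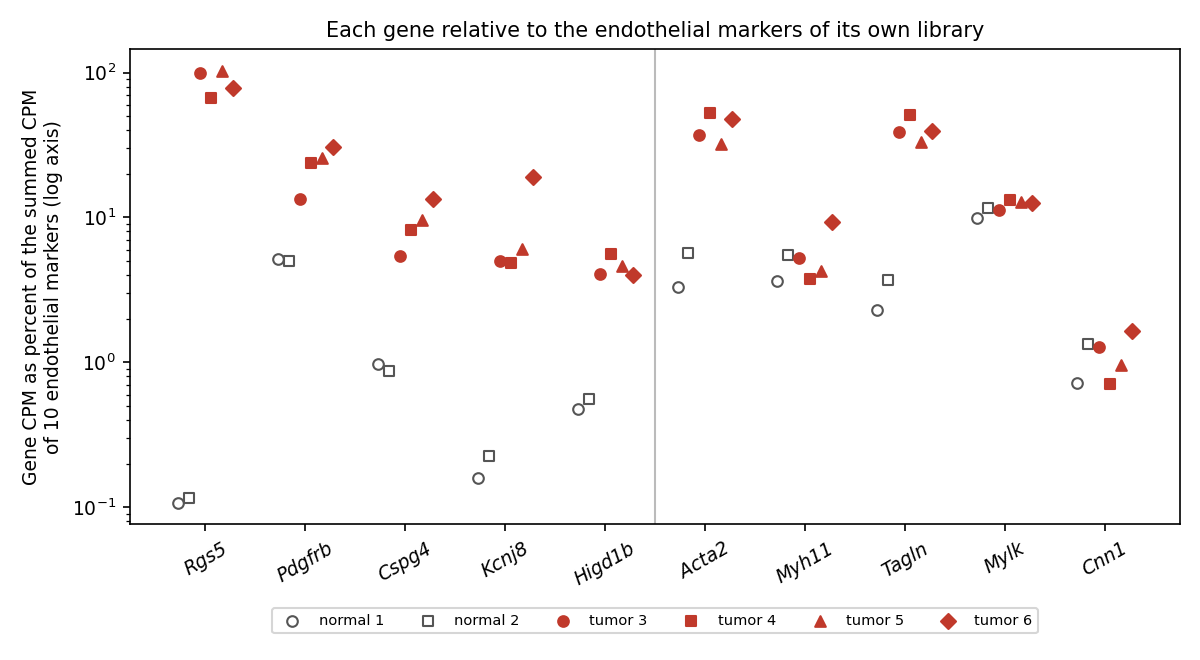
CPM of each gene as a percent of the summed CPM of 10 endothelial markers in the same library, on a log axis, with symbols as in the plot of levels by library. Mylk, Myh11 and Cnn1 overlap between tumors and normal lung, and the other 7 genes are higher in every tumor, as are 90.5% of all genes tested relative to the same sum.

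Among the tumors the contractile genes varied less than the pericyte markers. The SD of log2 CPM over the 4 tumors had a median of 0.31 for contractile genes and 0.47 for pericyte markers, beside 0.38 over all genes tested. Kcnj8 varied most, with an SD of 0.69, above that of 74.6% of tested genes, and a highest level 2.79 times its lowest. Mylk, Acta2 and Myh11 varied least (0.31 each), with highest levels 1.58, 1.59 and 1.69 times the lowest. Rgs5, Pdgfrb and Cspg4 were all highest in tumor 5. Pdgfrb and Cspg4 were lowest in tumor 3, where Rgs5 was the second highest, so these markers did not share 1 order over the tumors. Acta2 and Tagln were both highest in tumor 4 and lowest in tumor 6, and Myh11 and Cnn1 were lowest in tumor 4. With 4 tumors no correlation was computed.

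Of 20 other pericyte genes 16 fell, 0 rose and 4 did not pass (edgeR, median log2 fold change -3.01), beside 32.6% lower and 31.3% higher over all genes tested. At an unadjusted p under 0.05 again 0 were higher, with voom 0 and with DESeq2 1, Foxc1. Mcam, the adhesion receptor CD146, went from 281 ± 23.0 CPM (SD, n = 2) to 37.1 ± 6.10 (n = 4), 7.57-fold lower (adjusted p = 5.31e-05). Anpep, aminopeptidase N, was 6.37-fold lower (adjusted p = 0.000233). Notch3, the Notch receptor of mural cells, was 9.17-fold lower (adjusted p = 0.000236), and Ednra, the endothelin receptor, 11.1-fold lower (adjusted p = 0.000258). Abcc9, which encodes SUR2, the partner subunit of Kir6.1 in the channel, stood at 27.0 ± 1.72 CPM in normal lung and 19.2 ± 6.92 in tumors, a difference that did not pass (log2 fold change -0.49 ± 0.35, adjusted p = 0.25). Abcc9 was nevertheless below both normal samples in every tumor. The ratio of Kcnj8 to Abcc9 per kb was 0.815 and 0.964 in normal lung and 1.06 to 2.07 in tumors. Foxc1, a forkhead factor of mural cell development, had a log2 fold change of 1.10 ± 0.49 (adjusted p = 0.0894) and was called higher with DESeq2 (1.16) and without tumor 3 (1.35).

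Of 15 genes for signals that recruit pericytes 12 fell, 1 rose and 2, Pdgfc and Angpt2, did not pass, beside 32.6% lower and 31.3% higher over all genes tested. Their median log2 fold change was -3.70. Pdgfc, a further PDGF ligand, was above both normal samples in every tumor (0.38 ± 0.28, adjusted p = 0.269). Angpt2 stood at 24.2 and 32.9 CPM in normal 1 and 2, 29.4 in tumor 4 and 9.76 to 13.9 in the other tumors. Its log2 fold change was -0.85 ± 0.47 (edgeR, adjusted p = 0.156), and it was called lower with voom (-1.02) and without tumor 4 (-1.32). Pdgfb, the ligand of Pdgfrb, went from 98.9 and 101 CPM in normal 1 and 2 to 3.90, 3.73, 5.20 and 2.45 CPM in tumors 3 to 6 (log2 fold change -4.71 ± 0.29, adjusted p = 5.27e-05). Tek, the angiopoietin receptor of endothelium, was 75.4-fold lower (adjusted p = 4.32e-05) and Eng, endoglin, a coreceptor of TGF-beta, 58.4-fold lower (adjusted p = 2.36e-05). S1pr1, which senses sphingosine-1-phosphate, was 36.0-fold lower (adjusted p = 2.46e-05), and Tgfbr2, the type II TGF-beta receptor, 21.5-fold lower (adjusted p = 2.82e-05). The 1 gene that rose was Cdh2, N-cadherin, which joins pericytes to endothelium and is also a neural cadherin, from 8.93 ± 2.41 to 86.3 ± 18.1 CPM (3.27 ± 0.30, adjusted p = 0.000204). Several of these genes are endothelial, and the endothelial sum moved with them as given above. Its part in their fall was not tested.

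Of 27 other contractile genes 18 fell and 0 rose in edgeR (median log2 fold change -1.19), beside the same 32.6% and 31.3% of all genes. At an unadjusted p under 0.05, with DESeq2 and with voom 0 were higher too. Itga8, an integrin of smooth muscle and of lung fibroblasts, was 67.3-fold lower (adjusted p = 9.84e-05), and Prkg1, the cGMP-dependent kinase of relaxation, 18.7-fold lower (adjusted p = 4.94e-05). Myl9, the regulatory light chain, was 7.33-fold lower (adjusted p = 0.000137), and Actg2, enteric smooth muscle actin, 8.83-fold lower (adjusted p = 0.000241). The broadly expressed kinases Rock1 and Rock2 fell by 1.01 and 1.19 on the log2 scale (adjusted p = 0.00302 and 0.00291). Ppp1r12b, a myosin phosphatase subunit, stood at 20.7 ± 3.13 CPM in normal lung and 30.8 ± 8.40 in tumors (adjusted p = 0.125), and was called higher without tumor 4 (0.72). Of 13 tested regulators of smooth muscle transcription 9 fell and 0 rose in edgeR (median -2.05), again beside 32.6% lower and 31.3% higher over all genes. At an unadjusted p under 0.05 and with voom 0 rose, and with DESeq2 1 did. Foxf1, a forkhead factor of lung mesenchyme, was 88.0-fold lower (adjusted p = 0.000146), Prdm6 30.3-fold (adjusted p = 0.00011), Gata6 22.2-fold (adjusted p = 0.000205) and Foxo4, which binds myocardin, 5.62-fold (adjusted p = 0.000518).

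Myocd, which encodes the SRF coactivator myocardin, stood at 2.97 and 5.49 CPM in normal 1 and 2 and at 0.358, 0.236, 0.716 and 0.344 in tumors 3 to 6 (log2 fold change -3.34 ± 0.54, adjusted p = 0.00186). Mkl2, a myocardin-related coactivator, fell by 1.79 (adjusted p = 0.0021) and its relative Mkl1 by 0.89 (adjusted p = 0.00872). Mkl1 was no longer past the threshold without normal 1 (-0.97) or normal 2 (-0.84). Srf itself stood at 42.9 and 44.0 CPM in normal lung and 15.2, 33.5, 26.3 and 32.7 in tumors, lower in all 4 but not past the threshold (-0.69 ± 0.32, adjusted p = 0.096). Nkx2-3 and Barx1 had too few counts to be tested.

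Tumor 6 stood apart in some muscle genes. Its 14 striated muscle markers summed to 619 CPM against 13.3 to 67.5 CPM in tumors 3 to 5. The list did not move as a set. Acta1, Ckm, Tnnt3, Myh4 and Actn2 were highest in tumor 6. Myh6, Myh7, Tnni3, Nppa and Tnnc1 were at their lowest tumor level there, between 0.0150 CPM (Myh6) and 0.838 CPM (Tnnc1). Acta1, skeletal actin, stood at 320.5 CPM in tumor 6 and 1.05 to 1.97 in the other tumors, and Ckm, muscle creatine kinase, at 145.5 and 0.196 to 0.477. Of the listed genes that smooth and striated muscle share, Des, desmin, stood at 109 CPM in tumor 6 and 14.4 to 24.9 in the others, and Tpm2, a tropomyosin, at 87.9 and 9.87 to 21.9. Des and Tpm2 did not pass over all libraries (-1.06 and -0.50) and fell without tumor 6 (-2.06, adjusted p = 0.00161, and -1.60, adjusted p = 0.0136). Kcnmb1, a potassium channel subunit, stood at 16.2 CPM in tumor 6 and 0.785 to 1.77 in the others.

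Acta2, Tagln and Mylk did not follow Acta1 and Ckm. In tumor 6 Acta2 (39.9 CPM), Tagln and Mylk were at their lowest tumor level and only Myh11 was at its highest. Per kb, Acta1 was 11.5 times Acta2 in that library and at most 0.0657 times in the other 5. Kcnj8 was highest in tumor 6 as well. Acta2 shares long stretches of sequence with Acta1, Actc1 and Actg2, so the split of reads among the actin genes is uncertain. Per kb, Actc1 was 0.318 and 0.651 times Acta2 in normal 1 and 2 and 0.0651 to 0.307 times in tumors. The part of Actc1 in the Acta2 counts was not tested. Tagln overlaps exons of Pcsk7 on the opposite strand in GENCODE M21, and Mylk overlaps antisense RNAs. Pcsk7 stood at 49.4 and 50.3 CPM in normal lung and 17.6 to 29.8 in tumors. If the counting ignored strand, reads from the shared exons of the pair cannot be told apart, and the strand setting was not given. Of the other listed genes named here, Mcam, Notch3, Ednra, Itga8, Eng, Gata6, Foxf1, Abcc9, Des, Ckm, Mkl1 and Mkl2 overlap annotated genes too. So do Pdgfc, Ppp1r12b, Foxd3, Neurod1, Syp, Myh6, Myh7, Tnni3 and Nppa. Counts of all these genes carry the same uncertainty.

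**Figure D4:**
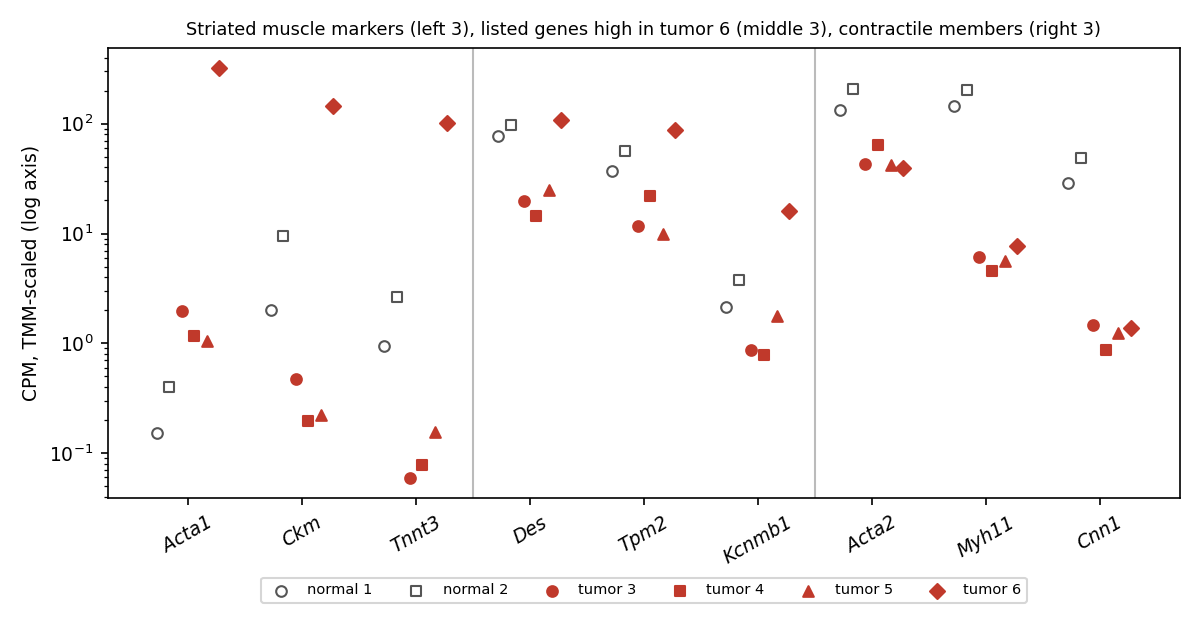
CPM on a log axis, 1 point per library, for 3 striated muscle markers (left), 3 listed genes that were high in tumor 6 (middle) and 3 contractile members (right). Tumor 6 (diamonds) is far above the other tumors for the first 6 genes (Acta1 320.5 against 1.05 to 1.97 CPM) and not for Acta2, Myh11 or Cnn1.

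Markers of other cells that could carry these genes were measured in the same libraries. The 11 fibroblast markers summed to 1958 and 1955 CPM in normal lung and to 464, 310, 366 and 1069 CPM in tumors 3 to 6, with tumor 6 the highest tumor. Of these 8 of 11 fell, beside 32.6% of all genes. All 4 mesothelial markers tested fell, beside the same 32.6%, and their sum went from 159 and 161 CPM to 3.78 to 14.2. The 7 glial and oligodendrocyte precursor markers, some of whose cells express Cspg4, summed to 4.49 and 6.34 CPM in normal lung and 2.69 to 9.08 in tumors. Of these, Olig2 was at 0 in 5 libraries and Foxd3 in tumors 3 to 5. The neuroendocrine sum rose with Rgs5 in every tumor, but tumor 4, where that sum was highest, was below tumors 3 and 5 in Rgs5. The part of these cells in the levels of the 10 genes was not tested.

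The genes nearest in pattern were found by the distance between centred log2 CPM profiles over the 6 libraries, among 10602 other genes with a mean log2 CPM of at least 3. For Rgs5 they were Nusap1 (distance 0.42), Ccne2 (0.50), Prim1 (0.59) and Rrm2 (0.60). As background, these encode a spindle protein, cyclin E2, a primase subunit and a subunit of ribonucleotide reductase. Nusap1 stood at 5.46 and 5.00 CPM in normal 1 and 2 and at 108, 102, 129 and 76.0 in tumors 3 to 6, with its highest level in tumor 5 and its lowest in tumor 6, as for Rgs5. For Acta2 they were Vat1 (0.39), a vesicle membrane protein gene, Fermt3 (0.46), a kindlin of blood cells, Stat3 (0.48), a cytokine-activated transcription factor, and Rabac1 (0.48), a prenylated Rab acceptor. Vat1 stood at 162 and 182 CPM in normal lung and 42.4, 67.5, 38.6 and 43.7 in tumors, highest in tumor 4 as Acta2 was. Profiles over 6 libraries in 2 groups are matched mainly by the size of the tumor difference.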

How the data were processed

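The deposited values are raw gene counts that the authors made with TPMCalculator, per the labels, as whole numbers for 22477 symbols. Per the submitters' processing notes, mm9 was among the builds and tools named, with STAR 2.5.4a, Trimmomatic 0.36, Trim Galore, R 3.5.1 and DESeq2 1.22.2, and no roles are given. The annotation and strand setting were not given in the sources used here. Libraries were poly(A)-selected with NEBNext reagents, per the labels' protocols.

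Counts were tested with edgeR 4.0.16 (quasi-likelihood) in R 4.3.3, after filterByExpr by group (at least 10 counts, and 15 in total), with TMM scaling, tissue as the only term and Benjamini-Hochberg adjustment over 18027 genes at 0.05. A standard error is the log2 fold change divided by the square root of F. Spreads use log2 CPM with a prior count of 2. The alternatives changed the scaling (RLE, upper quartile, none), the filter (none, or 1 CPM in all libraries of either group) or the tool (DESeq2 1.42.0, limma 3.58.1 with voom), or left out each library in turn. Removing Rn45s, Rpph1 and Rmrp was added after seeing the data. Exon lengths and overlaps came from GENCODE M21 and promoters from RefSeq, both on GRCm38, so no gene coordinates beyond those promoters are printed. Muc16 was not analysed here, and some genes of the lists are counted but not reported by name.

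The members and lists were chosen with earlier results of these data known. Text names all 10 members, from each list the genes with the smallest p (at most 4 rising and 4 falling), and 4 nearest patterns for Acta2 and Rgs5. Abcc9, Foxc1, Pdgfb, Pdgfc, Angpt2, Rock1, Rock2, Ppp1r12b, the Srf group and the genes high in tumor 6 were added once their values had been seen. Tested on simulated data of this comparison (17795 genes), the fit found 2.04% of 49 simulated 2-fold changes and 40.0% of 50 at 4-fold. At 16-fold it found 75.0% of 48, and at 64-fold 98.0% of 50, with 4 false calls in 17598 genes. Those 17598 genes were unchanged by design, while in the data 63.9% of genes tested were called. With so few changed genes the adjusted threshold was stricter on simulated counts, and these rates do not carry over to the data. Each library came from its own mouse, per the labels.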

Additional observations from a re-analysis of the deposited data

Results flagged for a closer look

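In 51 sets of 4 tumor values, the gap between the highest or lowest tumor and its nearest neighbour was compared with the whole range of the 4 by Dixon's 95% limit, and 6 sets passed it, where chance passes about 1 in 20. In 4 of them tumor 6 was the high library: the striated muscle marker sum at 619 CPM, Des at 109, Tpm2 at 87.9 and Kcnmb1 at 16.2 CPM. The last 3 were chosen because tumor 6 was high in them, so their number is no evidence of its own. In the other two tumor 4 was the high library: Acta2 at 63.5 CPM, against 39.9 to 42.8 in the other tumors, and Stat3, among the nearest patterns of Acta2, at 86.7 CPM. Stat3 was picked for a profile like that of Acta2, so it adds nothing to it, and the 6 cannot be read against 1 in 20.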

How the results depend on the processing

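The counts called among the 10 genes moved in 1 of 14 alternatives, where Tagln lost its call without normal 2. The direction of Kcnj8, never called, turned without tumor 6. Upper quartile scaling moved the median of all genes by 0.12. Dropping the filter moved it by 0.10, but there the median was over 21832 genes in place of 18027. The log2 fold change of Rgs5 went from 4.53 to 4.49 without the filter. Without normal 1 or normal 2, where the lone normal library is assumed to vary as the tumors do, genes called higher numbered 3373 and 3740 in place of 5638. Leaving out 1 library at a time gave 3373 to 5912 genes called higher, 0 to 1 higher genes among the other pericyte genes, the other contractile genes and the smooth muscle regulators, and a contractile median between -4.93 and -4.55. With DESeq2, 1 other pericyte gene (Foxc1) and 1 smooth muscle regulator were called higher. Over single genes of the lists, 29 calls were lost and 11 gained, and 0 reversed. No paired analysis was possible because the groups share no replicate number. With 2 normal libraries, 2-fold and 4-fold changes were mostly missed on simulated counts, where far fewer genes changed than were called in the data. No rate of missed genes in the data follows from that. Rock1, with a log2 fold change of -1.01, was called.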

Other observations

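Rgs5 belongs to a family of regulators of G protein signalling, and the other rows named Rgs with a number were read after its values were seen. Of 20 such rows 19 were tested, 6 rose, 7 fell and 6 did not pass (median log2 fold change -0.04), beside 31.3% higher and 32.6% lower over all genes. Rgs17, Rgs16, Rgs7 and Rgs8 rose with Rgs5. Rgs17 went from 1.84 and 2.55 CPM in normal 1 and 2 to 37.7, 59.0, 33.7 and 31.7 CPM in tumors 3 to 6 (log2 fold change 4.21 ± 0.39, adjusted p = 0.000207). Rgs7 went from 0.203 and 0.313 CPM to 12.3, 10.7, 16.02 and 13.1 CPM (5.65 ± 0.40, adjusted p = 8.55e-05). Rgs4, which neighbours Rgs5 on the chromosome, stood at 14.8 and 11.5 CPM in normal lung and 18.2, 18.9, 34.4 and 6.79 in tumors, highest in tumor 5 and lowest in tumor 6 as Rgs5 was, and did not pass (adjusted p = 0.413). Rgs6, Rgs12 and Rgs3 fell by 5.89, 2.19 and 1.93 on the log2 scale.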
